A study of Mus musculus with 26 samples.

Results

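The 6 genes of platelet-derived growth factor (PDGF) signalling, the ligand genes Pdgfa, Pdgfb, Pdgfc and Pdgfd and the receptor genes Pdgfra and Pdgfrb, were followed through RNA-seq counts of mouse XY gonads at the embryonic stage E13.5. They were found by gene identifier and symbol, 6 of the 57186 genes in the table of all Fgf9 deletions and 6 of the 31053 in the table of the Meis1 knockout, and all 6 passed the filter on low counts in both. The 26 samples were wild type (WT, n = 3), gonads of 4 genotypes named for Fgf9, Δ306 (n = 3), Δ225 (n = 6), Δ104 (n = 4) and Δ93 (n = 6), and a Meis1 knockout (Meis1 KO, n = 4). Fgf9 encodes a growth factor of the embryonic testis and Meis1 a homeobox transcription factor, and the same 3 WT samples were the reference for every mutant. The labels give no deletion boundaries, zygosity, strain, litter or number of embryos per sample, so the p-values measure the spread between these samples, which may in part be technical. The gonads had been cut away from the mesonephros and held many cell types. In such bulk samples fewer cells of a type and less RNA per cell cannot be told apart.

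PDGF ligands are secreted dimers that bring together pairs of receptor tyrosine kinases, which then recruit adaptors and switch on the PI3 kinase, phospholipase C and Ras pathways. PDGF-A and PDGF-C act on PDGF receptor α, PDGF-B acts on both receptors, and PDGF-D acts mainly on receptor β. In the embryonic testis, receptor α is carried by interstitial cells and is required for normal testis cords and fetal Leydig cells, Pdgfa is made largely by Sertoli cells, Pdgfb is made largely by endothelial cells, and receptor β marks pericytes and other mesenchymal cells.

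Pdgfra (ENSMUSG00000029231) lies on chromosome 5 from 75152292 to 75198215 on the plus strand of GRCm38, next to 2 other receptor kinase genes, Kit, which starts 377 kb after its end, and Kdr, a further 276 kb on. Of the ligand genes, Pdgfa (ENSMUSG00000025856) is on chromosome 5, from 138976014 to 138997370, and Pdgfb (ENSMUSG00000000489) on chromosome 15, from 79995874 to 80014977. Pdgfc (ENSMUSG00000028019) is on chromosome 3, from 81036416 to 81214040, and Pdgfd (ENSMUSG00000032006) on chromosome 9, from 6168584 to 6378850. Pdgfa and Pdgfb are on the minus strand and the other two on the plus strand.

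Promoter windows of 300 bases (250 before a transcription start and 50 after it) were read from RefSeq on GRCm38.p6 for 4 of the genes, Pdgfra, Pdgfa (at 2 starts), Pdgfc and Pdgfd. Those of Pdgfra and Pdgfa are shown because the 2 genes were lower together in 2 of the deletions, and that of Pdgfd for contrast, because its level differed little. They are at chr5:75152001-75152300 (plus strand), chr5:138994895-138995194 (minus strand, the more upstream of the 2 starts) and chr9:6168236-6168535 (plus strand), and each is written 5′ to 3′ on its gene's strand with motif matches in capitals.
Pdgfra: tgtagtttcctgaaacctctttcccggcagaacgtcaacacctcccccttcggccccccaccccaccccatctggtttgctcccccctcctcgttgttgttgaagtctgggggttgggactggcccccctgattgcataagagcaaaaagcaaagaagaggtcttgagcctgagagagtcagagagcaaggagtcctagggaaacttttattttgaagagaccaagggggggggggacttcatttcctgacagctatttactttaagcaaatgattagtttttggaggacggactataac
Pdgfa: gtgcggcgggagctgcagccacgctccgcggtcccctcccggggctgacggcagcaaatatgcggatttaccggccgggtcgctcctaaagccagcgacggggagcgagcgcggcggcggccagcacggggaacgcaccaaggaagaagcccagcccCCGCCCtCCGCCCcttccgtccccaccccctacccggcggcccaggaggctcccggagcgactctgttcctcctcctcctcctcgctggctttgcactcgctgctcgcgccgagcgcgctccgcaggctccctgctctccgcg
Pdgfd: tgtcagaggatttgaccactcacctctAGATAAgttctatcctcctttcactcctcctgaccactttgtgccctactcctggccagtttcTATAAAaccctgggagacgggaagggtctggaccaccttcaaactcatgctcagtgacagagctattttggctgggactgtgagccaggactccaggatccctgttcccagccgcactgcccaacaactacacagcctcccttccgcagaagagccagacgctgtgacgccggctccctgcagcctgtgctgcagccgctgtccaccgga

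The motifs were searched on both strands as exact letters, and no 2 matches in these windows overlapped. They were the GC box GGGCGG (in 35.7% of all 32851 windows), a GATA motif AGATAA (11.2%), a SOX motif AACAAT (10.7%), the half-site AAGGTCA of NR5A1 (4.72%) and a TATA box TATAAA (13.6%). The Pdgfra window held none of the 5 sets of letters, and neither did that of Pdgfc. The upstream Pdgfa window held 2 GC boxes on the strand opposite to the gene (read here as CCGCCC), beginning 93 and 86 bases before the start, and the other Pdgfa window held 1, 60 bases before it. The Pdgfd window held 1 GATA motif at 223 bases and 1 TATA box at 160 bases before the start. GC content was 51% in the Pdgfra window, 73.3% in the Pdgfa window shown and 56.7% in that of Pdgfd, against a median of 52.7% over all windows.

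Libraries held 11.6 to 53.4 M counts in the table of all deletions (median 36.75) and 35.5 to 51.7 M in the Meis1 table. Fgf9 was at 9.53 ± 0.32 CPM (counts scaled by library size and TMM factors) in WT, 2.48 ± 0.406 in Δ306, 3.08 ± 0.863 in Δ93, 4.85 ± 1.76 in Δ104 and 7.01 ± 4.73 in Δ225 (mean ± SD), and Meis1 at 78.4 ± 26.5 CPM in WT and 0.439 ± 0.209 in Meis1 KO. Summed Y-linked RNA (Ddx3y, Uty, Kdm5d and Eif2s3y) was 31.2 to 77.2 CPM in WT but under 1 CPM in 4 libraries labelled XY, namely replicate 3 of Δ306 (0.141), replicate 4 of Δ225 (0.199) and replicates 4 and 5 of Δ93 (0.0265 and 0.2). Low levels were not confined to these libraries. The highest sums were 11.7 CPM in Δ306, 6.6 in Δ93, 20.5 in Δ225 and 36.2 in Δ104 (median 5.28). In the Meis1 table the sum was 3.67 to 15.8 CPM in Meis1 KO and 33.3 to 81.6 in WT. All 4 genes were called lower than WT in Δ93, and none in Δ306, Δ225 or Δ104. The part of this in the PDGF differences was not tested. Xist, the RNA of the inactive X, was highest in Δ93 replicate 4, at 6.42 CPM, and at most 3.12 CPM (Δ225 replicate 2) elsewhere. It was at 0.671 CPM in Δ306 replicate 3, 0.177 in Δ225 replicate 4 and 0.226 in Δ93 replicate 5. WT replicate 1 had a germ cell marker sum of 13.9 CPM against 482 and 720 in the other WT libraries, and Δ225 replicate 3 a striated muscle marker sum of 1502 CPM against at most 98.5 in the other libraries of that table. Markers of the mesonephros summed to 27.2 to 66.3 CPM in all groups of that table. The defining markers of Sertoli cells, germ cells, interstitial cells and endothelium were detected in WT.

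Both receptor genes were lower in Δ306 and Δ93. In Δ225 Pdgfra stayed near the WT level, whereas Pdgfrb was at 78.9% of WT, not called and with a wide interval. Pdgfra was at 552, 483 and 456 CPM in WT and at 227, 171 and 162 CPM in Δ306, and in Δ93 it ranged from 177 to 259 CPM with a median of 223. No Δ306 or Δ93 library reached the lowest WT library. Here and below such separation is a description, and the share of all genes that separated in this way is not given. Pdgfra fell to 37.6% of WT in Δ306 (log2 fold change -1.41, SE 0.26, adjusted p = 0.00532) and to 44.6% in Δ93 (-1.17, SE 0.21, adjusted p = 0.00163).

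In Δ225 Pdgfra ranged from 453 to 517 CPM with a median of 478, and these levels overlapped those of WT. The log2 difference was -0.04, with a 95% interval of -0.49 to 0.41 (adjusted p = 0.939). The 4 Δ104 libraries were spread widely, at 193, 408, 621 and 403 CPM for replicates 1 to 4. Replicate 1 lay inside the Δ93 range and replicate 3 above every WT library, and Δ104 differed from WT by -0.29 (95% interval -0.78 to 0.19, adjusted p = 0.533). Fgf9 was at 2.72 CPM in that first Δ104 library and at 4.52 to 6.98 CPM in the other 3.

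Pdgfrb (ENSMUSG00000024620, chromosome 18, 61045150 to 61085061, plus strand), the receptor of mural and other mesenchymal cells, was at 293, 161 and 202 CPM in WT and at 92.9, 39.1 and 72.9 CPM in Δ306. In Δ93 it ranged from 50.5 to 91.7 CPM with a median of 74.3. All libraries of both deletions lay below the lowest WT library, although WT replicate 1 stood well above the other 2. Pdgfrb fell to 31.2% of WT in Δ306 (log2 fold change -1.68, SE 0.38, adjusted p = 0.0135) and to 33.1% in Δ93 (-1.60, SE 0.31, adjusted p = 0.00235). The Δ104 libraries, at 47.5, 90.7, 151 and 138 CPM, were also all below WT, but the difference of -1.03 (SE 0.34) did not pass the test (adjusted p = 0.183). In Δ225 the range was 95.5 to 228 CPM with a median of 177, overlapping WT (log2 difference -0.34, 95% interval -0.99 to 0.31, adjusted p = 0.582).

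**Figure D1:**
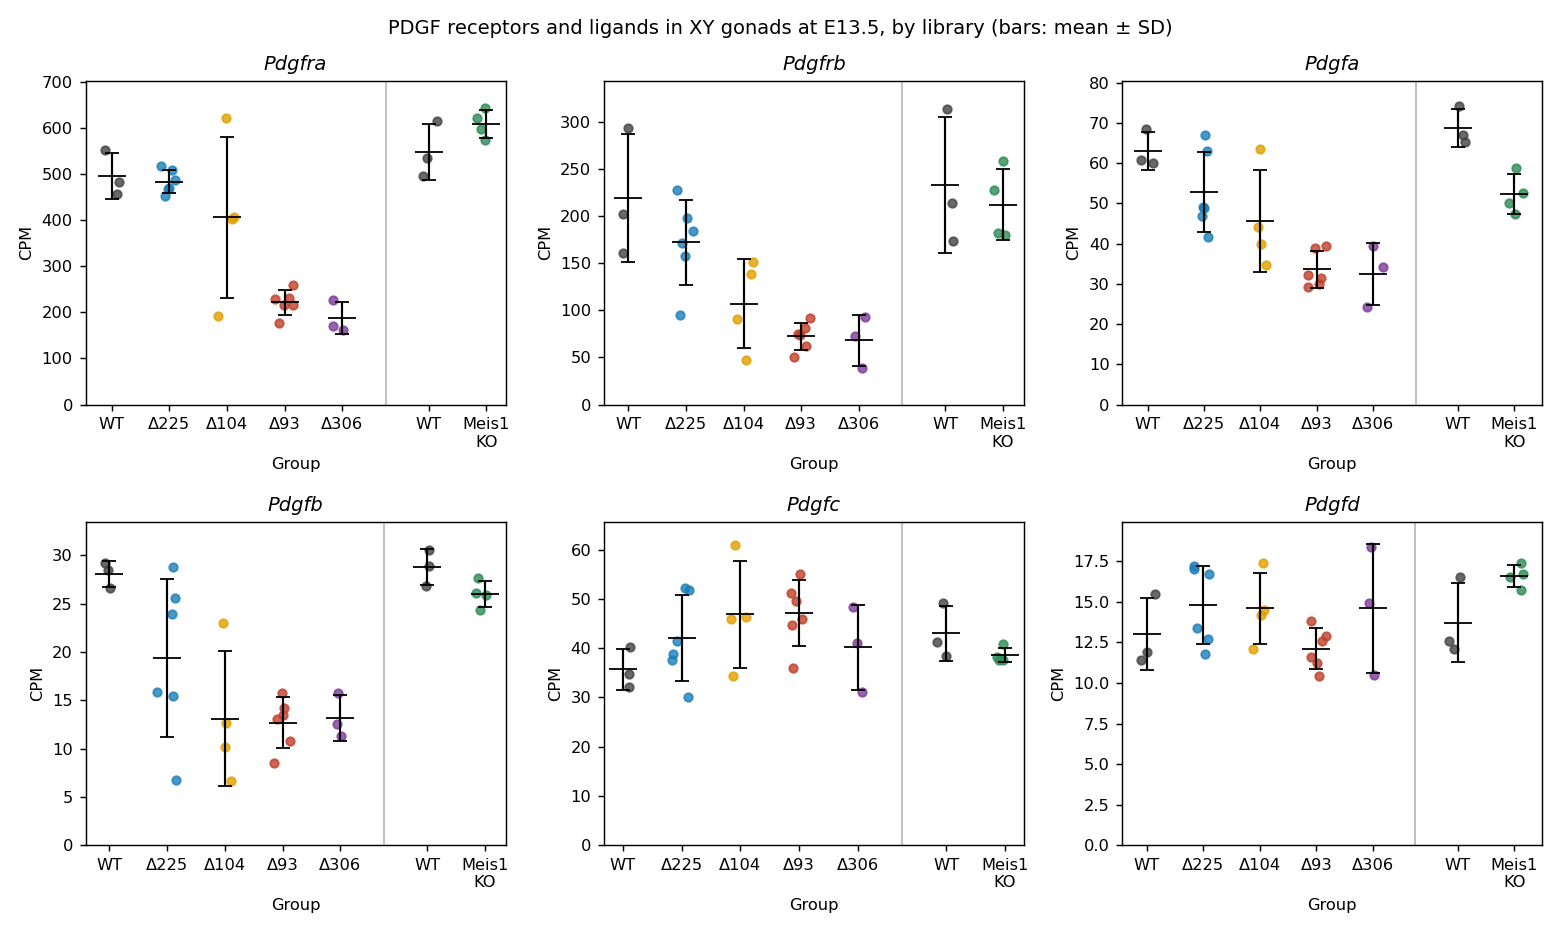
Level of each PDGF gene (y axis, CPM, from 0) in every library (points) by group (x axis), with black bars for the mean ± SD. The line separates the table of all deletions from the Meis1 table, which holds the same WT samples counted again. The receptor genes and Pdgfa sit lower in Δ93 and Δ306 than in WT, and Pdgfc and Pdgfd overlap WT in all 4 deletions.

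Among the ligand genes, Pdgfa fell in both deletions where the receptors fell, Pdgfb fell in Δ93 and did not pass the test in Δ306, and Pdgfc and Pdgfd were called in neither. Pdgfa, the Sertoli ligand of receptor α, was at 60.0, 68.5 and 60.8 CPM in WT and at 24.3, 39.3 and 34.1 CPM in Δ306. In Δ93 it ranged from 29.3 to 39.5 CPM with a median of 31.8. Every library of the 2 deletions was below every WT library. Pdgfa fell to 51.6% of WT in Δ306 (log2 fold change -0.95, SE 0.22, adjusted p = 0.0151) and to 53.2% in Δ93 (-0.91, SE 0.18, adjusted p = 0.00322). In Δ104 Pdgfa was at 34.6, 39.9, 44.2 and 63.5 CPM, where replicate 4 alone reached the WT range (log2 difference -0.47, 95% interval -0.89 to -0.05, adjusted p = 0.282). In Δ225 it ranged from 41.6 to 67.1 CPM with a median of 49.0 (-0.26, 95% interval -0.65 to 0.13, adjusted p = 0.48).

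Pdgfb, the endothelial ligand that draws pericytes to vessels, was at 28.5, 29.2 and 26.6 CPM in WT. It was at 15.8, 12.5 and 11.3 CPM in Δ306, and in Δ93 it ranged from 8.53 to 15.8 CPM with a median of 13.3. All libraries of both were below WT. Pdgfb fell to 45.1% of WT in Δ93 (log2 fold change -1.15, SE 0.34, adjusted p = 0.0272), whereas the difference of nearly the same size in Δ306 (-1.09, SE 0.41) did not pass the test (adjusted p = 0.113). It passed when the 2 groups were fitted without the others (adjusted p = 0.00639). It also passed in a second count of the same WT samples with Fgf9 mutant libraries (adjusted p = 0.00389). The mutant columns of that count name no deletion and were taken as Δ306 from the design stated for the series. Read in that way, it is a recount of the same samples and adds no independent support. In Δ104 it was at 6.66, 10.2, 12.7 and 23.0 CPM, all below WT, with a difference of -1.10 (SE 0.38, adjusted p = 0.198) that was called without replicate 4 (-1.52, adjusted p = 0.0342).

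The 6 Δ225 libraries were uneven for Pdgfb. Replicates 1 to 3 were at 6.73, 15.9 and 15.4 CPM and replicates 4 to 6 at 28.8, 25.6 and 23.9 CPM, so that 1 of them reached the WT range (log2 difference from WT -0.53, 95% interval -1.24 to 0.18, adjusted p = 0.43). The same replicates 1 to 3 had 11.6 to 23.3 M counts against 41.3 to 46.8 M in the other 3, and a Sertoli marker sum of 943 to 1390 CPM against 2569 to 2987. Pdgfa, described above as made largely by Sertoli cells, was not lower in replicates 1 to 3 as a set. It was at 67.1, 41.6 and 63.0 CPM there and at 46.9, 49.1 and 48.9 CPM in replicates 4 to 6. The part of depth or of cell make-up in the spread of Pdgfb or Pdgfa was not tested.

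Pdgfc and Pdgfd encode the ligands that are secreted with an inhibitory domain and need cutting by a protease. Pdgfc was at 40.2, 32.2 and 34.8 CPM in WT, at 48.4, 31.2 and 41.1 in Δ306 and at 45.9, 46.3, 61.0 and 34.3 in Δ104. It ranged from 35.9 to 55.1 CPM in Δ93 (median 47.8) and from 30.1 to 52.3 in Δ225 (median 40.2). Every deletion overlapped WT. The mean was nominally above that of WT in all 4, by 0.17 to 0.40 on the log2 scale, and the largest of these differences, in Δ93, had a 95% interval of 0 to 0.80 and an adjusted p of 0.181.

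Pdgfd was at 15.5, 11.9 and 11.4 CPM in WT, at 18.4, 10.5 and 14.9 in Δ306 and at 12.1, 14.5, 17.4 and 14.2 in Δ104. It ranged from 10.4 to 13.8 CPM in Δ93 (median 12.1) and from 11.8 to 17.2 in Δ225 (median 15). All groups overlapped. The log2 differences from WT lay between -0.10 (Δ93, 95% interval -0.48 to 0.28) and 0.19 (Δ225, -0.19 to 0.58), with adjusted p-values of 0.604 to 0.77. In Δ306 the difference was 0.17, with a 95% interval of -0.27 to 0.61.

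In Δ306 the test called 3 of the 6 genes, all lower, where it called 6.43% of the 22941 genes tested (3.46% as lower). In Δ93 it called 4 of 6, all lower, against 14.1% of all genes (6.84% as lower). None of the 6 was called in Δ225, against 0.209% of all genes, nor in Δ104, against 0.0610%. At an unadjusted p under 0.05 the count was 0 in Δ225 and 3 in Δ104 (Pdgfa, Pdgfb and Pdgfrb), against 3687 and 3610 of the 22941 genes. DESeq2 called 0 of the 6 in both. The median log2 fold change of the 6 genes was -1.02 in Δ306, -1.03 in Δ93, -0.38 in Δ104 and -0.15 in Δ225, where the median of all genes tested was between 0.04 and 0.08. These 4 comparisons share their WT samples.

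The Δ306 calls rested on few libraries, as did those over all genes. These numbered 1474, and 205 to 1310 when single libraries were left out. The call of Pdgfrb was lost when WT replicate 1 was left out (log2 fold change -1.44, adjusted p = 0.0595) and likewise for Δ306 replicate 2 (-1.44, adjusted p = 0.0752). Without Δ306 replicate 3, whose Y-linked RNA was near 0, Pdgfra alone was called, at adjusted p-values of 0.0564 for Pdgfa (log2 fold change -1.03) and 0.0617 for Pdgfrb (-1.77), and without all 4 libraries of low Y-linked RNA none was called in Δ306, with adjusted p-values of 0.077 for Pdgfa, 0.0617 for Pdgfra (-1.36) and 0.077 for Pdgfrb. In Δ93, Pdgfra, Pdgfrb and Pdgfa were called under every alternative run, whereas Pdgfb lost its call without any 1 of the WT replicates 1, 2 and 3 (adjusted p = 0.0885, 0.0874 and 0.0675), without Δ93 replicate 2 (0.0533) and without the 4 libraries (0.0669).

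**Figure D2:**
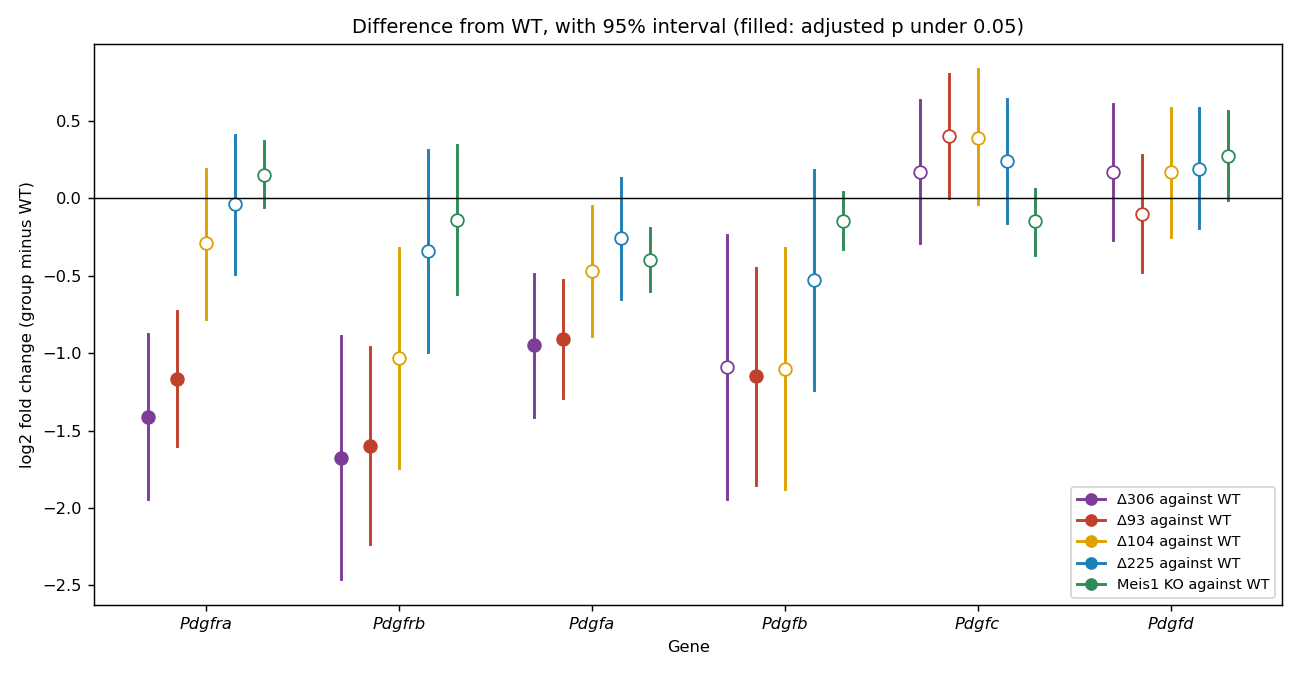
Log2 fold change (y axis) of each PDGF gene (x axis) between each mutant group and WT, with lines for the 95% interval and filled points for an adjusted p under 0.05. Filled points are Pdgfra, Pdgfrb and Pdgfa in Δ306 and Δ93, and Pdgfb in Δ93. The intervals of Pdgfc and Pdgfd reach 0 in all groups.

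The deletions were also set against each other. Pdgfra was higher in every Δ225 library (lowest 453 CPM) than in any Δ93 library (highest 259), and rose 2.18-fold in Δ225 relative to Δ93 (log2 fold change 1.13, SE 0.18, adjusted p = 2.16e-04). Pdgfrb was 2.38-fold higher in Δ225 (1.25, SE 0.26, adjusted p = 0.00209) and Pdgfa 1.57-fold higher (0.65, SE 0.16, adjusted p = 0.0054), and neither overlapped between the 2 groups, although the lowest Δ225 library of Pdgfrb, at 95.5 CPM, was close to the highest of Δ93, at 91.7. Thus 3 of 6 genes were called, all higher in Δ225, where the test called 20.8% of all genes (9.96% as higher). Pdgfb, at 0.62 (95% interval 0.02 to 1.21, adjusted p = 0.129), was not called, and it was called without Δ225 replicate 1 (0.82, adjusted p = 0.022) and without the 3 shallower Δ225 libraries (1.04, adjusted p = 0.0132).

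Against Δ306, the same 3 genes were called higher in Δ225, where 13.2% of all genes were called (6.47% as higher). Pdgfra was 2.59-fold higher (log2 fold change 1.37, SE 0.23, adjusted p = 9.89e-04), Pdgfrb 2.53-fold (1.34, SE 0.34, adjusted p = 0.0136) and Pdgfa 1.62-fold (0.70, SE 0.20, adjusted p = 0.0233). The groups did not overlap for any of the 3. Without Δ306 replicate 3, or without the 4 libraries of low Y-linked RNA, Pdgfra alone was called, with Pdgfrb at adjusted p-values of 0.0583 and 0.106 and Pdgfa at 0.0703 and 0.0969. Leaving out Δ306 replicate 2 also ended the call of Pdgfrb (0.0896), and that of Pdgfa ended without the first Δ306 library (0.108), without the 3 shallower Δ225 libraries (0.0571) and in a fit of the 2 groups alone (0.0706).

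No PDGF gene was called between Δ225 and Δ104 (0.645% of all genes), between Δ104 and Δ306 (0.0654%), between Δ93 and Δ306 (0.0785%) or between Δ93 and Δ104 (0.0523%) by edgeR. In that order, 1, 2, 0 and 2 of the 6 had an unadjusted p under 0.05, against 2423, 2547, 2065 and 3326 of the 22941 genes tested. DESeq2 called 0, 1, 0 and 1 of the 6. Between Δ225 and Δ104 the widest difference was in Pdgfrb, at 0.69 (95% interval 0.07 to 1.31, adjusted p = 0.392). Pdgfra came nearest to a call in the comparisons of Δ104 with Δ306 (log2 fold change 1.12, SE 0.24, adjusted p = 0.0792) and of Δ93 with Δ104 (-0.87, SE 0.20, adjusted p = 0.0768). The first Δ104 library overlapped both deletions. Without it Pdgfra was called in both comparisons (1.34, adjusted p = 7.31e-04, and -1.08, adjusted p = 3.32e-04), DESeq2 called it with all libraries (adjusted p = 0.00239 and 0.00727), and leaving out Δ93 replicate 1 also gave a call against Δ104 (-0.86, adjusted p = 0.0446).

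Between Δ93 and Δ306 the receptor genes differed by 0.25 for Pdgfra (95% interval -0.21 to 0.70) and 0.08 for Pdgfrb (-0.58 to 0.75), and Pdgfa by 0.04 (-0.35 to 0.44). None of the 3 differed beyond the spread between libraries.

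In Meis1 KO no PDGF gene was called by edgeR, and Pdgfa was nominally lower. Pdgfa was at 67.1, 74.1 and 65.2 CPM in WT and at 50.1, 47.3, 52.7 and 58.9 CPM in Meis1 KO. All 4 knockout libraries were below WT, at a mean of 75.9% of it (log2 fold change -0.40, SE 0.09), but the difference did not pass the test (adjusted p = 0.0687), and Pdgfa was called by DESeq2 (-0.41, adjusted p = 0.00314) and without WT replicate 1 (-0.41, adjusted p = 0.0274). Pdgfd was at 16.5, 12.6 and 12.1 CPM in WT and 16.7, 17.4, 16.5 and 15.7 in Meis1 KO (0.27, SE 0.12, adjusted p = 0.277), with a call without WT replicate 1 (0.43, adjusted p = 0.0215). For Pdgfd, WT replicate 1, the library with few germ cell transcripts, lay inside the knockout range.

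Pdgfra was at 615, 534 and 495 CPM in WT and 644, 622, 597 and 575 in Meis1 KO (log2 difference 0.15, 95% interval -0.06 to 0.37, adjusted p = 0.415). Pdgfrb was at 313, 173 and 214 CPM in WT and 258, 180, 228 and 182 in Meis1 KO (-0.14, 95% interval -0.62 to 0.34, adjusted p = 0.784). Pdgfb and Pdgfc each differed by -0.15 (adjusted p = 0.384 and 0.421). Except for Pdgfa, the groups overlapped. The test called 0 of the 6 genes and 1.80% of the 16791 tested. Of the 6, 1 (Pdgfa) had an unadjusted p under 0.05, as did 3239 of the 16791.

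Within WT the genes were compared per kilobase of exon. Pdgfra came first, at 55.1, 48.1 and 45.5 CPM per kb in the 3 libraries, followed by Pdgfrb at 53.5, 29.3 and 36.9, and these neighbours overlapped. Pdgfa followed at 19.2, 22 and 19.5 CPM per kb, below every Pdgfrb value. Pdgfc (7.91, 6.32 and 6.83) and Pdgfb (6.85, 7.02 and 6.40) overlapped each other, and Pdgfd (4.92, 3.78 and 3.63) lay below both. Thus the 2 receptors were above all 4 ligands in WT. In Δ306 the mean of Pdgfra was 18.7 CPM per kb and that of Pdgfrb 12.5, and those of the ligands 10.4 (Pdgfa), 7.90 (Pdgfc), 4.63 (Pdgfd) and 3.17 (Pdgfb).

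The other genes of the pathway were examined by fixed lists. Of 7 genes that process or hold PDGF ligands, 1 fell in Δ306 and 2 fell in Δ93, with list medians of -0.45 and -0.31. Of all genes tested, 3.46% were called lower in Δ306 and 6.84% in Δ93, with medians of 0.08 and 0.06. Pcsk5, a proprotein convertase that can cut PDGF precursors, fell from 195 CPM in WT to 43.1 in Δ306 (log2 fold change -2.18, SE 0.35, adjusted p = 0.00229) and 48.6 in Δ93 (-2, SE 0.28, adjusted p = 5.76e-04). Nrp1, a co-receptor of several growth factors, fell by 0.81 in Δ93 (adjusted p = 0.0484). Furin, the main convertase of PDGF-A and PDGF-B, was at 112 CPM in WT and 108 in Δ93 (-0.06, adjusted p = 0.907). Plat and Plau, which encode the plasminogen activators that cut PDGF-C and PDGF-D, were at 82.4 and 24.3 CPM in WT and 87.9 and 21.3 in Δ93, and neither was called against WT (adjusted p = 0.816 and 0.632).

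Of the 15 adaptors and effectors of the receptors, 1 rose and none fell in Δ306, and 1 fell and none rose in Δ93, where 6.43% and 14.1% of all genes were called. DESeq2 called 3 of the 15 in each. In edgeR 5 and 6 had an unadjusted p under 0.05, as did 5033 and 6529 of the 22941 genes tested. The edgeR calls were the SH2 and SH3 adaptors Nck1 (0.46 in Δ306, adjusted p = 0.0492) and Nck2 (-0.54 in Δ93, adjusted p = 0.0266). The list medians were -0.32 and -0.09. Grb2, Gab1, Pik3ca and Ptpn11 were not called in Δ93, with log2 fold changes between -0.29 and -0.04. Larger differences that were not called there went both ways. Among them were Shc1 (-0.47, adjusted p = 0.147), Plcg1 (-0.46, 0.0773), Pik3r1 (0.57, 0.144) and Rasa1 (0.45, 0.154). Between Δ225 and Δ306 or Δ93 the catalytic subunit Pik3ca was called, higher in Δ225 by 0.71 (adjusted p = 6.10e-04) and 0.45 (adjusted p = 0.00105).

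Of 10 immediate early genes, which respond to many receptors and to tissue handling, 1 fell in Δ306 and 3 fell and 1 rose in Δ93 (list medians -0.48 and -0.24). The shares of all genes called there were 6.43% and 14.1%. Egr1 fell by 1.02 in Δ306 (SE 0.28, adjusted p = 0.0336) and by 0.96 in Δ93 (SE 0.23, adjusted p = 0.00913). In Δ93, Ccn1, a matricellular gene, fell by 1.38 (adjusted p = 0.00428) and Ier3 rose by 1.14 (adjusted p = 0.0144). Fos was at 1.87 CPM in WT and 1.97 in Δ93 (0.07, adjusted p = 0.93).

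Among the related type III receptors and their ligands, 1 of 6 rose and 1 fell in both deletions, where 6.43% (Δ306) and 14.1% (Δ93) of all genes were called. Kitl, the ligand of Kit, rose from 194 CPM in WT to 507 in Δ306 (log2 fold change 1.39, SE 0.32, adjusted p = 0.0147) and 597 in Δ93 (1.62, SE 0.29, adjusted p = 0.00163). Flt3 fell in both, by 2.44 (adjusted p = 0.0284) and 1.99 (adjusted p = 0.0103), from 0.823 CPM in WT. Kit and Kdr, the receptor genes beside Pdgfra on chromosome 5, were not called in Δ306 (0.13, adjusted p = 0.905, and -0.27, adjusted p = 0.594) or Δ93 (0.38, adjusted p = 0.565, and -0.11, adjusted p = 0.8). Of 8 VEGF family genes edgeR and DESeq2 called none in Δ306. There 2 had an unadjusted p under 0.05, as did 5033 of the 22941 genes tested. In Δ93, where 6.84% of all genes were called lower, 2 fell, the ligands Pgf (-1.77, adjusted p = 0.0291) and Vegfd (-1.52, adjusted p = 0.0106).

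Against WT, edgeR called none of the 46 genes of these 5 lists in Δ225 or Δ104, and DESeq2 called 3 and 0. An unadjusted p under 0.05 was found for 11 and 11 of the 46, and for 3687 and 3610 of the 22941 genes tested. In Meis1 KO, where 1.80% of all genes were called, edgeR called only Ier3, which rose from 2.81 to 6.03 CPM (1.11, SE 0.21, adjusted p = 0.0449).

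**Figure D3:**
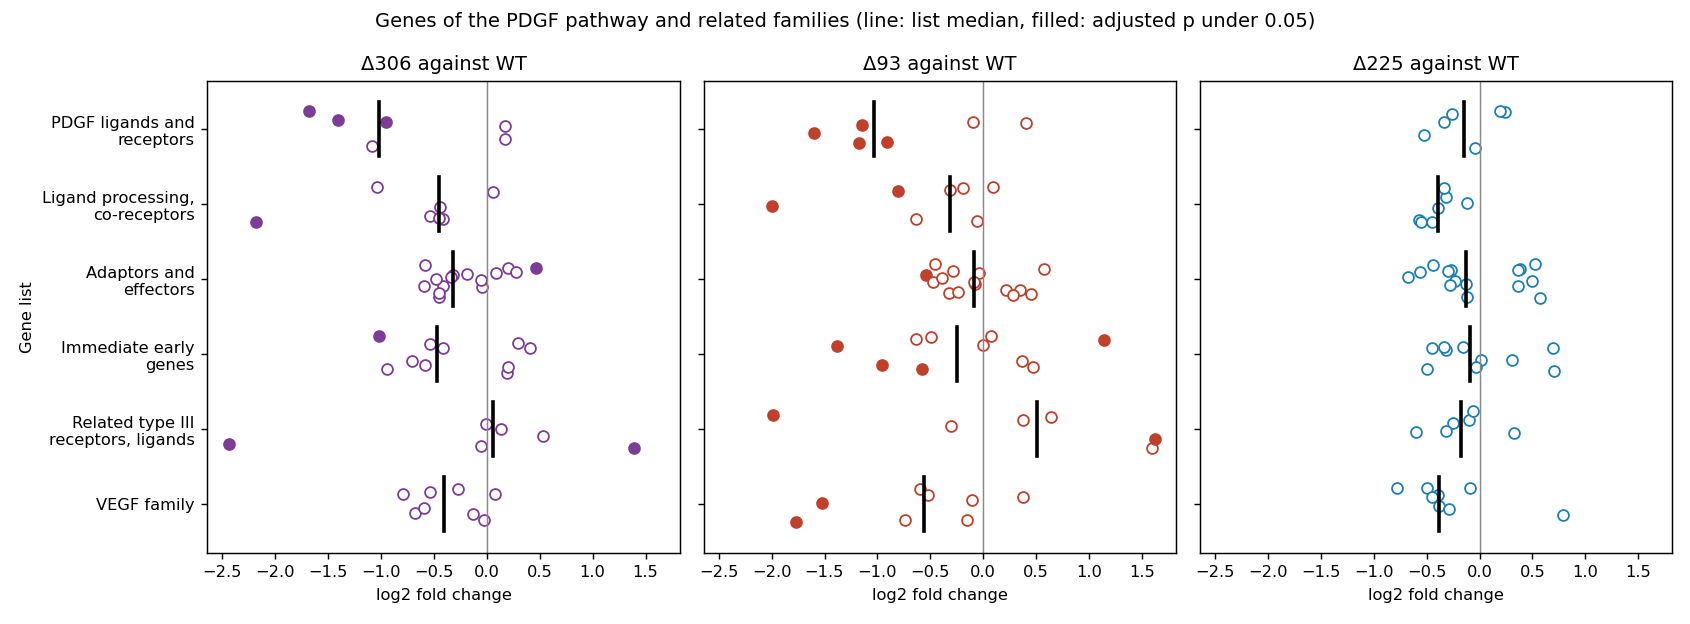
Log2 fold change against WT (x axis) of each gene (points) in the PDGF, pathway and related lists (y axis), for Δ306, Δ93 and Δ225. Black lines are list medians and filled points have an adjusted p under 0.05. The PDGF ligands and receptors have medians of -1.02 in Δ306 and -1.03 in Δ93, and the 15 adaptors and effectors -0.32 and -0.09. No point is filled for Δ225.

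Markers of the cells that carry or make these factors were examined beside them. Counts of markers that fell are read against the 3.46% of all genes called lower in Δ306 and the 6.84% in Δ93. Of 9 markers of interstitial progenitors, 6 fell in Δ306 and 8 in Δ93 (medians -1.57 and -1.49), led by Hhip, a hedgehog target (-3.07 and -3.44, adjusted p = 0.0398 and 0.00297). Their summed level was 1488 to 1786 CPM in WT, 1272 to 1702 in Δ225, 512 to 733 in Δ306 and 517 to 711 in Δ93. In Δ104 it was 468, 1024, 1696 and 1505 CPM for replicates 1 to 4, and Pdgfra was lowest and highest in the same libraries as this sum. None of the 9 was at 0 in any library.

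Of 8 pericyte and mural markers, 3 fell in Δ306 and 4 in Δ93 (medians -0.92 and -0.82), among them Acta2, a smooth muscle actin (-2.04 and -1.43, adjusted p = 0.00993 and 0.00932), Notch3 (-1.60 and -1.58, adjusted p = 0.0227 and 0.0036) and Cspg4 (-1.86 and -1.49, adjusted p = 0.0121 and 0.00551). Rgs5, Kcnj8, Abcc9 and Des were called in neither. Of these, Rgs5 was nominally higher in Δ306 (0.91, adjusted p = 0.288) and near WT in Δ93 (0.06, adjusted p = 0.947). The sum of all 8, weighted to genes of high level such as Notch3 and Acta2 (189 and 171 CPM in WT), was 536 to 643 CPM in WT. It was 366 to 756 in Δ225, 177 to 315 in Δ306, 177 to 311 in Δ93 and 158 to 515 in Δ104. The lowest Δ225 library of this sum was replicate 1, which was also the lowest for Pdgfrb.

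Of 8 endothelial markers, 1 fell in Δ306 and 2 in Δ93 (medians -0.47 and -0.46), with Cdh5, the vascular cadherin, down by 1.14 (adjusted p = 0.0147) and 0.98 (adjusted p = 0.00532). The 8 changes in Δ306 ran from that of Cdh5 to 0.10 for Egfl7 (adjusted p = 0.919). Their sum, weighted to genes of high level such as Cdh5 and Pecam1 (178 and 116 CPM in WT), was 441 to 604 CPM in WT. It was 270 to 400 in Δ306, 279 to 390 in Δ93, 237 to 359 in Δ104 and 231 to 475 in Δ225. Sertoli markers summed to 2388 to 3151 CPM in WT, 240 to 708 in Δ306 and 245 to 1189 in Δ93, and 3 and 4 of 10 were called lower, in each case with the targeted gene Fgf9 among them. Of the pre-granulosa markers, 6 of 8 rose in Δ306 and 7 rose and 1 fell in Δ93, from a sum of 128 to 196 CPM in WT to 518 to 825 and 497 to 1189. In either direction, 6.43% and 14.1% of all genes were called there. Fetal Leydig markers, of which 6 of 7 passed the filter, summed to 1043 to 1829 CPM in WT, 42.1 to 112 in Δ306 and 51.2 to 392 in Δ93, with 3 and 4 called lower. The part of these cell types in the levels of the PDGF genes was not tested.

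**Figure D4:**
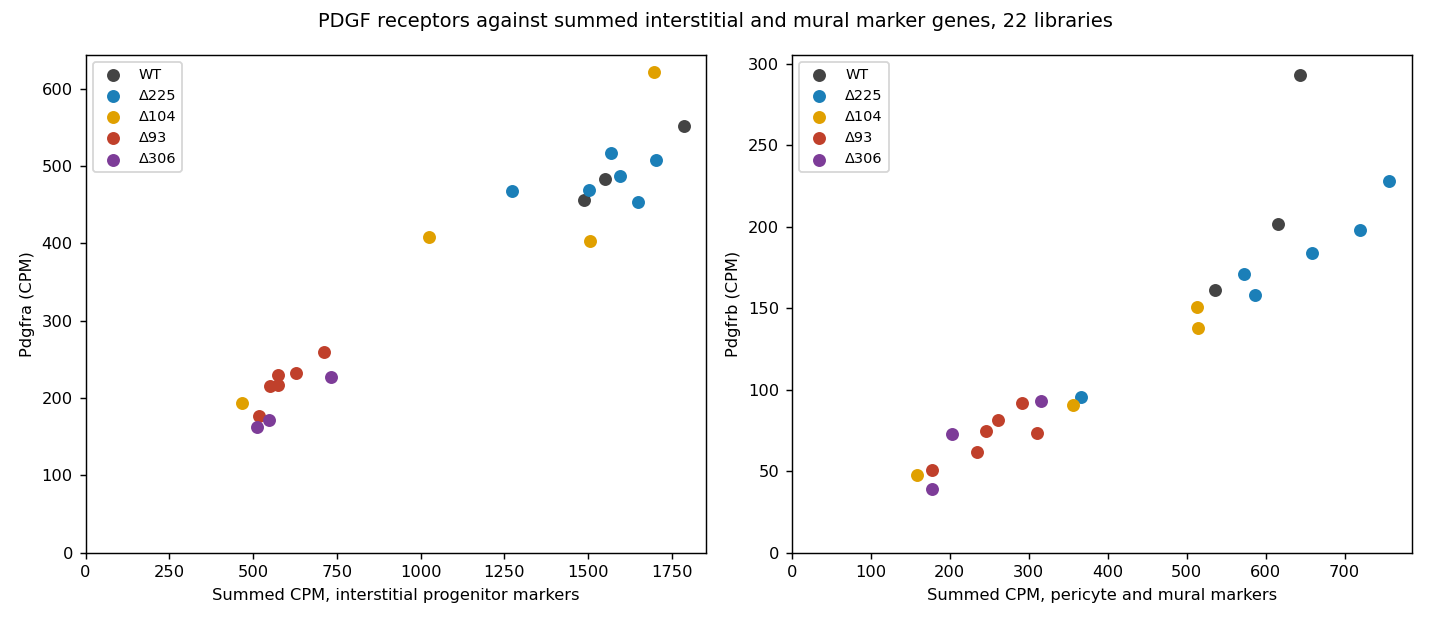
Pdgfra (left) and Pdgfrb (right) in CPM on the y axis against the summed CPM of interstitial progenitor and of pericyte and mural markers on the x axis, 1 point per library of WT and the 4 deletions. All Δ93 and Δ306 libraries and replicate 1 of Δ104 lie at the low end of both axes, and WT and most Δ225 libraries at the high end.

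The PDGF genes differed in how they varied over the 22 libraries of WT and deletions, given here as a description, since the libraries share groups and depth. Pdgfra and Pdgfrb had a Pearson r of 0.862 over log2 CPM (Spearman rho 0.845), and 0.643 after group means were removed. Pdgfc and Pdgfd went together within groups (0.828 after group means were removed, 0.574 before). Pdgfa and Pdgfra had an r of 0.735, which was 0.073 after group means were removed, so their likeness over all libraries lay between groups. For Pdgfb and Pdgfrb the values were 0.779 and 0.729.

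Among 14092 genes searched, those most like Pdgfra were Acvr1 (r = 0.982), Ednra (0.978) and Gli2 (0.977), a receptor of the BMP family, an endothelin receptor and a hedgehog transcription factor, at 0.922, 0.924 and 0.964 after group means were removed. Those most like Pdgfrb were the collagen gene Col1a2 (0.972), the metalloproteinase gene Mmp2 (0.965) and Tril (0.965), at 0.943, 0.94 and 0.916. For Pdgfb they were Pkdcc (0.975), Oaf (0.965) and Fxyd6 (0.965), at 0.979, 0.962 and 0.968. Likeness was lower for the other ligands. It reached 0.874 for Pdgfa (Mybl1, then Rab3b at 0.873 and Chchd10 at 0.86), 0.802 for Pdgfc (Sspn, then Pcdh18 at 0.801 and Ptgr3 at 0.797) and 0.80 for Pdgfd (Kcnt2 and Zfp469, then Meis1 at 0.793).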

How the data were processed

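RNA from 26 XY gonad samples in 6 groups was sequenced from poly(A)-selected, strand-specific libraries, per the labels' protocols. The deposited values are raw counts per gene, and the submitters' processing notes name STAR 2.7.10a, featureCounts, Subread, DESeq2 and mm10, with no settings. An identifier map deposited by the authors gave symbols. All sample columns were used, and all 51 pairs of replicate libraries differed beyond counting noise. Coordinates come from GENCODE M21 on GRCm38 (the same assembly as mm10) and promoters from RefSeq on GRCm38.p6.

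Counts were fitted with edgeR 4.0.16 in R 4.3.3 (filterByExpr, TMM, glmQLFit, glmQLFTest), with 22 libraries in 1 fit for the 10 comparisons of the deletions and WT (22941 genes, 17 residual degrees of freedom) and a separate fit for Meis1 KO (16791 genes, 5). Adjusted p is Benjamini-Hochberg over all genes of a comparison, and a gene was called under 0.05. That made 66 member tests. Likeness used log2 CPM (prior count 2) and genes with a mean CPM of at least 1. The scripts were tested on simulated counts. The text names the 6 members, the targeted genes and the 3 genes most like each member. It also names at most 3 called genes per list and comparison with the largest change. Others, such as Furin, Plat, Plau, Grb2, Gab1, Ptpn11, Fos, Kit, Kdr, Rgs5, Kcnj8, Abcc9 and Des, were added after their values were seen. So were Shc1, Plcg1, Pik3r1, Rasa1, Pecam1 and Egfl7. The members and lists were chosen with earlier results of these data known. Alternatives were DESeq2 1.42.0, RLE or no composition factors, no filter, a threshold of 0.01, a replicate block, fits of the compared groups or of the WT and Δ306 table alone, and leaving out libraries.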

Additional observations from a re-analysis of the deposited data

Results flagged for a closer look

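Of 24 sets of 4 to 6 libraries of 1 gene and group that were checked for a sample far from the others, 1 had such a sample, where chance gives about 1 in 20. Pdgfc was at 40.8 CPM in replicate 2 of Meis1 KO, while the other 3 knockout libraries lay between 37.7 and 38.2 CPM. The gap was 0.845 of the range of the group. The 4 libraries span a narrow range, and that one lies within the WT range of 38.5 to 49.2 CPM.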

How the results depend on the processing

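The number of PDGF genes called stayed at 3 or 4 in Δ93 against WT and in Δ225 against Δ93 under every alternative, and at 0 in Δ225 against Δ104 and in Δ93 against Δ306. Leaving out single libraries gave 1 to 3 in Δ306 against WT and in Δ225 against Δ306, 0 to 1 in the comparisons of Δ104 with WT, with Δ306 and with Δ93, and 0 to 2 in Meis1 KO. At an adjusted p under 0.01 the count fell from 3 to 1 in Δ306 against WT and in Δ225 against Δ306, and without the 4 libraries of low Y-linked RNA, a choice made after seeing the data like that of the 3 shallower Δ225 libraries, it was 0 and 1. DESeq2 called 1 gene in the comparisons of Δ104 with Δ306 and with Δ93 and in Meis1 KO, where edgeR called 0. The causes were not tested.

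Same-numbered libraries of 2 groups did not deviate together throughout (correlations of -0.31 to 0.48 over the 11 comparisons), so the numbers were not taken as pairs. With a replicate block the count was 1 in place of 0 in Δ225 against WT (Pdgfb, log2 fold change -1.06, adjusted p = 0.0395) and in Δ104 against WT (Pdgfb, -1.47, adjusted p = 0.0399), and 4 in place of 3 in Δ306 (Pdgfb, -1.07, adjusted p = 0.0489). It changed no other call.

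All log2 fold changes that changed sign were uncalled as reported and under the alternative. Without composition factors they were -0.03 (Pdgfc) and -0.08 (Pdgfd) for Δ225 against Δ306, -0.01 (Pdgfd) for Δ225 against Δ104 and -0.02 (Pdgfa) for Δ93 against Δ306. With the replicate block they were 0 (Pdgfd) for Δ104 against Δ306, and -0.01 (Pdgfa) and -0.16 (Pdgfrb) for Δ93 against Δ306. Without the low Y-linked libraries they were 0 (Pdgfd) for Δ225 against Δ104, 0.01 (Pdgfd) for Δ104 against Δ306, -0.03 (Pdgfrb) for Δ93 against Δ306 and -0.05 (Pdgfc) for Δ93 against Δ104. Without the shallower Δ225 libraries they were 0.01 (Pdgfra) against WT and -0.02 (Pdgfd) against Δ306. Leaving out single libraries gave, against WT, -0.01 to 0.29 (Pdgfc) and -0.06 to 0.32 (Pdgfd) in Δ306, -0.11 to 0.04 (Pdgfra) in Δ225, -0.19 to 0.05 (Pdgfd) in Δ93 and -0.33 to 0.14 (Pdgfrb) in Meis1 KO. For Δ225 it gave -0.06 to 0.24 (Pdgfc) and -0.15 to 0.24 (Pdgfd) against Δ306, and -0.05 to 0.12 (Pdgfd) against Δ104. For Δ104 against Δ306 it gave -0.43 to 0.20 (Pdgfb) and -0.20 to 0.19 (Pdgfd). For Δ93 against Δ306 it gave -0.10 to 0.23 (Pdgfa), -0.12 to 0.12 (Pdgfb) and -0.17 to 0.39 (Pdgfrb), and against Δ104 -0.24 to 0.37 (Pdgfb) and -0.12 to 0.18 (Pdgfc).

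The background of calls moved as well. Over all alternatives the genes called numbered 102 to 3429 (1474 as reported) in Δ306, 1234 to 4491 (3229) in Δ93, 1 to 1638 (48) in Δ225, 0 to 601 (14) in Δ104 and 15 to 2204 (303) in Meis1 KO, each against WT. Between deletions they numbered 2097 to 6429 (4767) for Δ225 against Δ93, 516 to 4229 (3030) for Δ225 against Δ306, 1 to 1170 (148) for Δ225 against Δ104, 0 to 385 (15) for Δ104 against Δ306, 2 to 169 (18) for Δ93 against Δ306 and 2 to 791 (12) for Δ93 against Δ104. Counts of 69 to 31112 per library lay behind each PDGF value.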
